A study of Mus musculus with 6 samples.

Results

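The genes described here are 55 mouse transcription factor genes, outside the Hox clusters, that place structures along the axes of the limb, face, somite and body wall. They were taken by symbol from a written list (Zic, Msx, Dlx, T-box, paired-type, LIM, sine oculis-type (Six2, Six4, Six5), Meis, Pbx, Iroquois, Meox, Pax, Twist, Tcf21 and forkhead genes) and all 55 were found among the 46603 genes counted. RNA sequencing gave their levels in cultured mouse embryonic fibroblasts (MEFs), mesenchymal cells grown out of embryos. There were 3 libraries from cells that lack the beta-actin gene Actb (Actb-/-, KO) and 3 from wild-type cells (WT). Both genotypes are labelled as BALB/c strain, from embryos of 10.5 days, and both were held for 6 days in adipocyte differentiation medium, which held IBMX, dexamethasone, insulin and ascorbic acid. The comparison asks which genes differ between the genotypes in that medium. No library was taken before induction, so a difference of long standing and one that arose in the medium cannot be told apart. The labels do not say which embryo or cell line each library came from, so genotype and line of origin cannot be told apart either, and p-values measure only the spread between these libraries, which may be technical. No batch is labelled.

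As background, patterning factors are read out in the embryo from gradients of secreted signals such as BMP and Hedgehog proteins, and cultured fibroblasts keep much of the combination of their site of origin. A combination of such factors therefore serves as a molecular address of a mesenchymal cell. Msx and Dlx homeodomain genes respond to BMP signalling, Zic proteins bind DNA through zinc fingers related to those of the Gli effectors of Hedgehog, and the TALE proteins Meis and Pbx bind DNA together with other homeodomain proteins.

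The targeted gene was checked first. Actb stood at 1901, 1904 and 1820 CPM (counts per 1e6 reads in scaled libraries) in WT replicates 1, 2 and 3 and at 10.4, 58.9 and 50.3 CPM in the KO replicates. It fell by 5.55 on the log2 scale (SE 0.80, adjusted p = 0.000981), in the direction the labels give. Library totals ran from 26955708 to 38619711 counts, and a gene with 0 counts could still have had up to 3, which equals 0.0816 to 0.113 CPM. Of 12 fibroblast markers 8 were higher in KO, with a summed level of 3008 to 3780 CPM in WT and 7837 to 10880 CPM in KO. Among these markers Thy1 summed to 1 count over WT and 50 over KO, and Col1a2 was at 0.300 CPM in WT. Thy1 and Col1a2 were thus at or near 0 in WT cells, while 7 of the 12 markers averaged over 10 CPM in both genotypes. Of 10 neural crest and neural progenitor markers Sox1 and Sox2 had 0 counts in every library, and the list summed to 88.1 to 123.5 CPM in WT and 77.5 to 133.7 CPM in KO, with 2 of 6 tested markers, Pax6 and Ngfr, lower. The muscle regulator Myf5 had 0 counts throughout, while 8 skeletal muscle markers summed to 12.7 to 20.8 CPM in WT and 29.6 to 47.1 CPM in KO. That sum was mostly Des (16.6 against 35.6 CPM on average, called higher), and 7 of the 8 markers averaged under 1 CPM in both genotypes. Cardiac markers summed to 35.2 to 36.9 CPM in WT and 34.3 to 41.1 CPM in KO. That sum was mostly Nkx2-5 (35.0 against 37.1 CPM on average, not called), and 5 of the 6 cardiac markers averaged under 1 CPM in both genotypes. The 7 epithelial markers summed to 2.04 to 2.40 CPM in WT and 4.92 to 16.0 CPM in KO, but the higher sum was that of Krt18 (0.183 against 8.60 CPM on average, called higher). Epcam summed to 127 counts over WT against 0 over KO (called lower), and Cdh1 (29 against 6 counts), Krt8 (19 against 8) and Krt14 (11 against 2) were too low to test. The sums were 31.3 to 33.3 CPM in WT and 23.9 to 28.2 CPM in KO for 5 chondrocyte markers, 2.07 to 3.58 and 1.61 to 3.23 CPM for 5 endothelial markers, and 8.07 to 20.5 and 3.21 to 15.7 CPM for 6 macrophage or blood markers. Nes made up most of the neural sum (76.36 against 95.25 CPM on average), Sox9 of the chondrocyte sum (26.10 against 21.18) and Cd68 of the macrophage sum (11.45 against 6.358). None of these was called. The part of these differences in the results on patterning genes was not tested, and in bulk libraries fewer cells of a type and less RNA per cell cannot be told apart.

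Patterning genes were lower more often than higher in KO cells. Of the 55 genes, 47 had enough counts to be tested, and 30 of those (63.8%) were called at an adjusted p below 0.05, 20 lower and 10 higher in KO. Of all 15009 tested genes 27.9% were called, 14.3% lower and 13.6% higher. The median log2 fold change of the 47 genes was -0.41, against 0.01 over all tested genes. Genes such as Lmx1b and Irx1 entered the test through their WT counts alone and so had to differ, which the share called among the 47 genes includes. Among the 31 genes with a mean of at least 5 CPM over the 6 libraries, 13 were lower and 7 higher, and 26.9% of all genes of that level were called in either direction. That level too was reached in 1 genotype alone by genes such as Zic1, Msx1, Irx2 and Msx2, so both counts describe the genes and support no excess of calls. The called genes differed by at least 2-fold in 24 cases, 18 lower and 6 higher, where 15.2% of all tested genes met both conditions. In 35 of 47 genes the 3 KO and 3 WT values did not overlap, a feature of 49.6% of all tested genes. Leaving out 1 library moved the number of called patterning genes to between 22 (without WT replicate 2 or 3) and 35 (without KO replicate 1), and without WT replicate 2 the higher genes numbered 5. Over all genes, 4194 were called with all 6 libraries, 2537 without WT replicate 1, 2232 without WT replicate 2, 2746 without WT replicate 3 and 6569 without KO replicate 1. The summed level of the 55 genes was 1003, 936 and 1009 CPM in WT and 669.7, 748.2 and 703.8 CPM in KO. The 8 genes that were too low to test were Tbx3, Tbx4, Tbx5, Pitx1, Lhx8, Meox2, Pax1 and Tcf21, of which Lhx8 and Meox2 had 0 counts in all 6 libraries.

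Promoter sequence was available from RefSeq (GRCm38.p6) for 36 of the 55 genes. The following sequences cover the 120 bases before the RefSeq start of 4 genes that were lower in KO (Msx1, Tbx20, Irx2, Tbx1) and 3 that were higher (Tbx18, Shox2, Pbx2), from genes whose stretch overlaps none of their annotated exons, and are shown to let their base composition be read directly. Exons of other genes were not excluded: the Tbx18 stretch lies in the exon of D030062O11Rik and the Shox2 stretch within the gene Rsrc1, both on the other strand. The sequences are written 5′ to 3′ on the strand of the gene, with each CpG dinucleotide in capitals. The Msx1 stretch is chr5:37824586-37824705 on the minus strand, Tbx20 is chr9:24774304-24774423 on the minus strand, Tbx1 is chr16:18590672-18590791 on the minus strand, Irx2 is chr13:72628700-72628819 on the plus strand, Tbx18 is chr9:87731261-87731380 on the minus strand, Shox2 is chr3:66981772-66981891 on the minus strand and Pbx2 is chr17:34592139-34592258 on the plus strand, where the stretch also lies in an intron of a longer GENCODE transcript.
Msx1: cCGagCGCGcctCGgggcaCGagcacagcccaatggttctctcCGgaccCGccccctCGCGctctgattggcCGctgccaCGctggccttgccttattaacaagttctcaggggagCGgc
Tbx20: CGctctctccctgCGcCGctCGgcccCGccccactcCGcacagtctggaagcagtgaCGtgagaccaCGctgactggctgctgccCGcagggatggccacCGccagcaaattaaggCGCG
Irx2: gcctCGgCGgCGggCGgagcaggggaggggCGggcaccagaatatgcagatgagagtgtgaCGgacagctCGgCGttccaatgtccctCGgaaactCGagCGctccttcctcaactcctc
Tbx1: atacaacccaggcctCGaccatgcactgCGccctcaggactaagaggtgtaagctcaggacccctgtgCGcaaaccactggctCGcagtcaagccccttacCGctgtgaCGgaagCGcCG
Tbx18: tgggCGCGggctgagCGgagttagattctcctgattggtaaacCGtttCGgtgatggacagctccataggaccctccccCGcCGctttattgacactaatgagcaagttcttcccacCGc
Shox2: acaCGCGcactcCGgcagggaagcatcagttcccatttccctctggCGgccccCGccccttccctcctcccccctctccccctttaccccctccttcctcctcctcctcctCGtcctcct
Pbx2: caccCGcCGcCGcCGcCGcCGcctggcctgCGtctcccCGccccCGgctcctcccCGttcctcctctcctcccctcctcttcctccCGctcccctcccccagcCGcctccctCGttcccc

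These stretches hold 12, 12, 11 and 8 CpG dinucleotides in Msx1, Tbx20, Irx2 and Tbx1 and 8, 6 and 13 in Tbx18, Shox2 and Pbx2, so the lower and the higher genes overlap. The same window holds 19 in Lhx2 and 10 in Lmx1b, the other called genes with no exon of their own in it. CpG-rich promoters are usual for developmental regulators, and over the 250 bases before the start the 36 genes had a median of 13 CpG, against 6 over 27025 genes. Within the set the median was 19.5 in 14 genes lower in KO, 13 in 7 genes higher and 15.5 in 10 genes not called, with ranges of 4 to 29, 4 to 27 and 4 to 24 that overlap almost wholly. The lowest values of the lower and the higher genes were those of Zic4 and Lhx9. Their RefSeq starts lie 6559 and 6133 bases from the GENCODE gene starts, and that of Prrx2 lies 10395 bases away. Motifs were searched in the same 250 bases on both strands, and a match is a description of letters only. The GC box letters GGGCGG were present in 21 of 36 genes (32.9% of all promoters) and CCAAT in 17 (34.5%), while TATAAA was present in 5 (13.0%). The homeodomain core TAATTA was found in 2 of 36 genes (4.90% of all promoters) and the Meis core TGACAG in 7 (16.0%). The CArG box, the recognition element of the actin-regulated factor SRF, was found in 0 of 36 windows and in 1.40% of all.

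**Figure D1:**
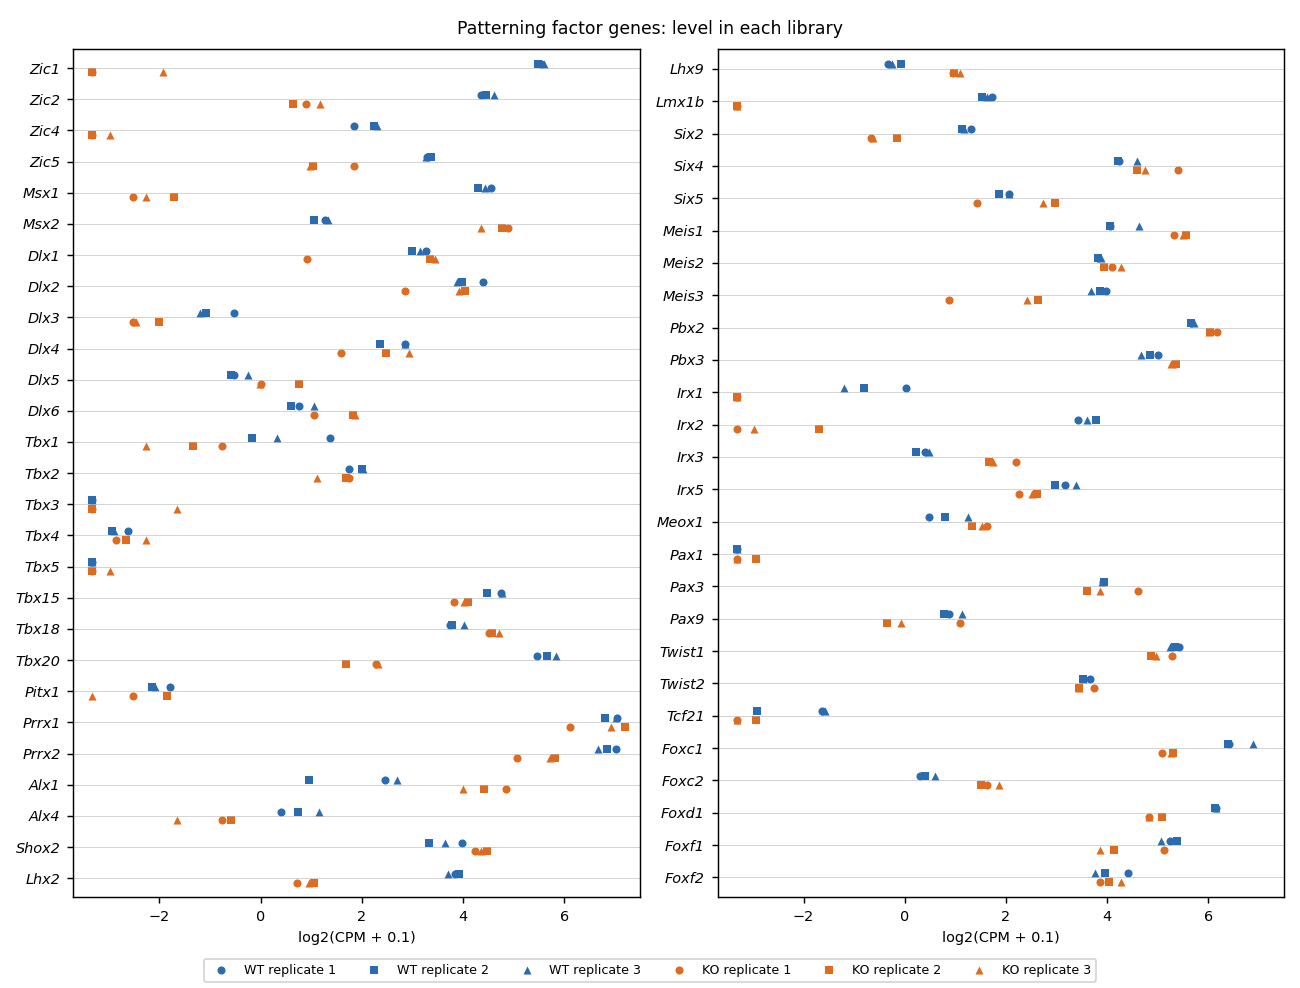
Level of the patterning genes in each library, as log2(CPM + 0.1) on the horizontal axis, with WT libraries in blue, KO libraries in orange and the marker shape giving the replicate. Of the 55 genes, Lhx8 and Meox2 are not drawn, since they had 0 counts in every library. WT values of Zic1, Msx1, Tbx20, Lmx1b and Irx2 lie to the right of their KO values with a wide gap, Msx2 and Alx1 lie the other way, and KO replicate 1 sits apart from the other KO libraries in Dlx1, Meis3 and Foxf1.

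All 4 Zic genes were lower in KO cells, and Zic1 and Zic4 were close to absent there. Zic1 (chr9:91358058-91365810, minus strand), which marks dorsal neural and somite-derived cells and the precursors of classical brown fat, stood at 46.7, 44.7 and 48.3 CPM in WT. In KO it had 0, 0 and 6 counts in the libraries of replicates 1, 2 and 3, the last equal to 0.163 CPM. The fitted change was -9.48 on the log2 scale (SE 1.80, adjusted p = 8.23e-05), a size that rests on those 6 counts. Zic4 (chr9:91362413-91389348, plus strand) had 112, 148 and 143 counts in WT against 0, 0 and 1 in KO, a ratio of 419.7 (95% counting interval 74.9 to 16620, adjusted p = 0.000142). Both genes thus separated the genotypes completely. They lie head to head, share 60 exon bases on opposite strands, and the strand setting of the counting is not given in the sources used here. Reads in those shared bases cannot be assigned between them.

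The second Zic locus moved the same way, but less far. Zic2 (chr14:122475435-122479852, plus strand), needed for closure of the neural tube and division of the forebrain, was at 20.5, 21.9 and 24.5 CPM in WT and 1.77, 1.45 and 2.15 CPM in KO, and fell by 3.64 (SE 0.18, adjusted p = 8.19e-05). Its neighbour Zic5 (chr14:122456795-122465677, minus strand) was at 9.68, 10.2 and 9.56 CPM in WT and 3.49, 1.96 and 1.88 CPM in KO, and fell by 2.01 (SE 0.29, adjusted p = 0.00233). Neither gene's KO libraries overlapped WT, and unlike Zic1 both kept clear transcript levels in KO.

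The pair of Msx genes moved in opposite directions. Msx1 (chr5:37820485-37824583, minus strand), a homeodomain repressor of limb and craniofacial mesenchyme, was at 23.4, 19.5 and 21.6 CPM in WT and 0.0751, 0.208 and 0.109 CPM in KO. It fell by 7.29 (SE 0.42, adjusted p = 2.87e-05), to levels around the limit of 3 counts. Its paralogue Msx2 (chr13:53466884-53473074, minus strand), which acts in the skull sutures and in osteogenic cells, was at 2.33, 1.98 and 2.43 CPM in WT and 29.4, 27.1 and 20.3 CPM in KO, and rose by 3.51 (SE 0.19, adjusted p = 8.52e-05). Neither gene overlapped between genotypes. Per kb of exon, Msx1 ranked 11 of the 55 genes in WT at 6.94 CPM per kb and 41 in KO at 0.0421, while Msx2 went from 0.685 CPM per kb in WT to 7.81 in KO.

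The Dlx genes, which set dorsal and ventral identity in the pharyngeal arches, were mostly not called: 1 of 6 was lower, and 5 did not pass the test. Dlx3, a gene of epidermis, placenta and teeth, was near the limit with 19, 12 and 10 counts in WT against 2, 5 and 3 in KO and fell by 2.05 (SE 0.39, adjusted p = 0.0160). Dlx1 was at 9.55, 7.83 and 8.78 CPM in WT and 1.80, 10.0 and 10.8 CPM in KO (log2 difference -0.20, SE 0.85, adjusted p = 0.812). Dlx2 was at 20.9, 15.7 and 14.7 CPM in WT and 7.17, 16.4 and 15 CPM in KO (log2 difference -0.41, SE 0.41, adjusted p = 0.367). In both, and in Dlx4 (7.17, 5.06 and 7.09 against 2.89, 5.49 and 7.51 CPM), KO replicate 1 was the low library and the other KO libraries lay within or next to the WT range. Dlx5 and Dlx6, bone and branchial arch regulators at or under 3.56 CPM in every library, had log2 fold changes of 0.84 (SE 0.30, adjusted p = 0.117) and 0.85 (SE 0.31, adjusted p = 0.0809). DESeq2 called Dlx6 with all 6 libraries (log2 0.865, adjusted p = 0.04). Without KO replicate 1, Dlx6 passed the edgeR test (log2 1.08, adjusted p = 0.00628), and the changes of Dlx1 and Dlx4 turned to 0.26 and 0.02 without passing it. Dlx3 did not pass without WT replicate 1, without WT replicate 2 or without KO replicate 3 (adjusted p = 0.0669, 0.0507 and 0.0670).

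**Figure D2:**
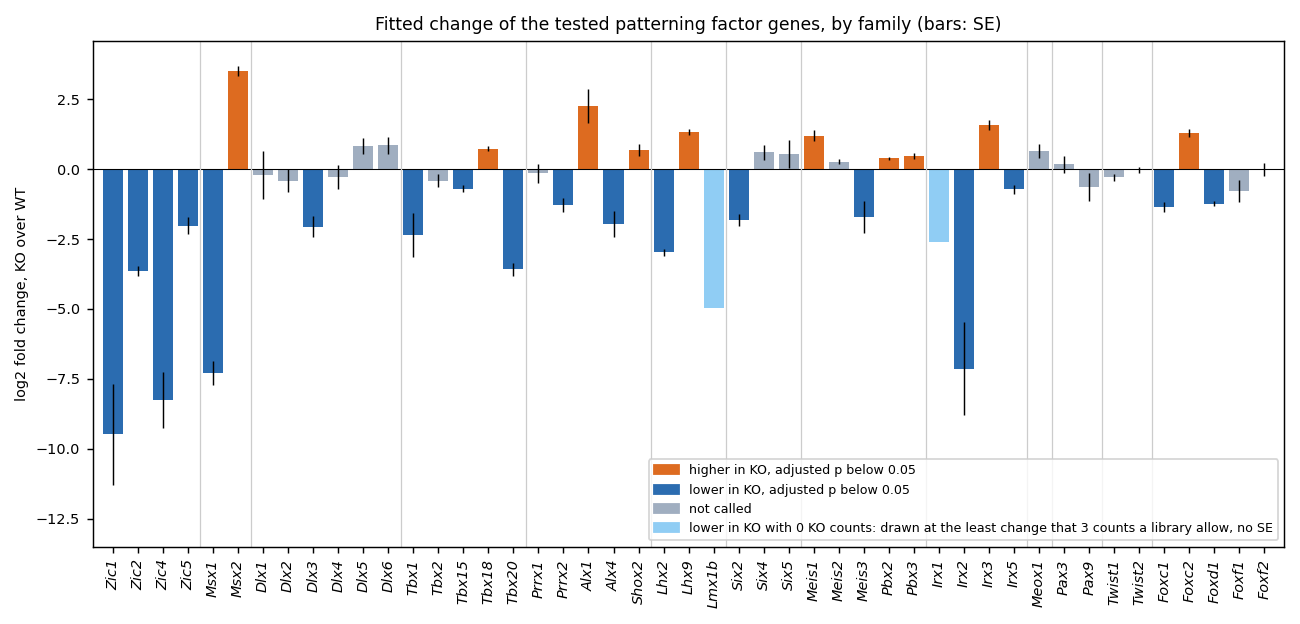
Fitted log2 fold change of KO over WT for the 47 tested genes in family order, with bars for the SE; orange bars are higher, blue bars lower and grey bars not called, and the pale bars of Lmx1b and Irx1, with 0 KO counts, are drawn at the least change that 3 counts a library allow. The 4 Zic genes point down together, Msx1 and Msx2 point apart, and 20 bars are blue (the pale ones included) against 10 orange.

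T-box genes, which carry a shared DNA-binding domain and act in limb, heart and pharynx, split into genes with marked, small and no measured change. Tbx20 (chr9:24718138-24774303, minus strand), known from the developing heart and cranial motor neurons, was at 44.3, 50.2 and 57.2 CPM in WT and 4.73, 3.11 and 4.87 CPM in KO. It fell by 3.58 (SE 0.23, adjusted p = 8.88e-05) with no overlap of the genotypes. The cardiac partner Nkx2-5, fixed as a cardiac marker, was at 35.0 ± 0.887 CPM (SD, n = 3) in WT and 34.0, 40.4 and 37.0 CPM in KO, while the cardiac myosin genes Myh6 and Myh7 were near absent in both genotypes, with 1 and 7 counts over the WT libraries and 0 in KO. Tbx15, active in limb mesenchyme and in fat depots, was at 27.0, 22.1 and 27.4 CPM in WT and 14.1, 17.1 and 16.2 CPM in KO, and fell by 0.69 (SE 0.13, adjusted p = 0.0141). Tbx18, a gene of the anterior somite, epicardium and limb mesenchyme, was at 13.4, 13.7 and 16.1 CPM in WT and 22.8, 23.6 and 25.9 CPM in KO, and rose by 0.74 (SE 0.10, adjusted p = 0.00810). Tbx15 and Tbx18, which act together in the shoulder girdle and dermis, thus moved apart with no overlap of the genotypes.

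Among the lower T-box genes, the pharyngeal regulator Tbx1 was at 2.48, 0.786 and 1.15 CPM in WT and 0.488, 0.296 and 0.109 CPM in KO, and fell by 2.34 (SE 0.79, adjusted p = 0.0294). The repressor Tbx2 was at 3.27, 3.93 and 3.98 CPM in WT and 3.27, 3.11 and 2.07 CPM in KO (log2 difference -0.41, SE 0.23, adjusted p = 0.286). The limb identity genes were almost silent in both genotypes. Tbx5, of the forelimb, had 0 counts in WT and 0, 0 and 1 in KO, and Tbx4, of the hindlimb, had 2, 1 and 1 counts in WT against 1, 2 and 4 in KO. Tbx3 had 0 counts in WT and 0, 0 and 8 in KO. Tbx1 did not pass without WT replicate 1 (adjusted p = 0.105), without WT replicate 3 (0.0670), without KO replicate 2 (0.0651) or without KO replicate 3 (0.0732). Tbx15 did not pass without WT replicate 1 (0.0614) or without WT replicate 3 (0.0583), nor Tbx18 without WT replicate 2 (0.0518).

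Paired-type homeobox genes of limb and facial mesenchyme included the most abundant patterning genes of these cells. Prrx2 (chr2:30834972-30881251, plus strand) had the highest level per kb of exon of the 55 genes in WT, at 59.0 CPM per kb, and was at 24.3 in KO. Its libraries were at 130, 115 and 101 CPM in WT and 33.5, 56.5 and 52.8 CPM in KO, and it fell by 1.28 (SE 0.26, adjusted p = 0.00427). Its paralogue Prrx1, with which it overlaps in function in the limb and jaw, was at 132, 111 and 130 CPM in WT and 69.2, 148 and 121 CPM in KO (log2 difference -0.15, SE 0.34, adjusted p = 0.704). The low Prrx1 value belonged to KO replicate 1, and without it the change was 0.11 and was not called.

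The Alx genes, which shape the frontonasal region, moved in opposite directions. Alx1 (chr10:102998707-103030215, minus strand) was at 5.37, 1.85 and 6.35 CPM in WT and 28.6, 21.3 and 16.0 CPM in KO, and rose by 2.28 (SE 0.61, adjusted p = 0.00866). Alx4 was at 1.23, 1.57 and 2.13 CPM in WT and 0.488, 0.563 and 0.218 CPM in KO, and fell by 1.96 (SE 0.48, adjusted p = 0.0132). Genotypes did not overlap in either gene. Shox2, of the proximal limb skeleton and the sinus node, was at 15.7, 9.93 and 12.4 CPM in WT and 18.9, 22.1 and 20.3 CPM in KO, and rose by 0.69 (SE 0.20, adjusted p = 0.0351). The hindlimb gene Pitx1 had 6, 4 and 4 counts in WT against 2, 6 and 0 in KO. Alx4 did not pass without WT replicate 3 (adjusted p = 0.0554), nor Shox2 without WT replicate 2 (0.127), without WT replicate 3 (0.111), without KO replicate 2 (0.0861), without KO replicate 3 (0.0807) or with library totals as the only scaling (0.104).

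In the LIM homeobox family 2 genes fell and 1 rose. Lmx1b (chr2:33560965-33640511, minus strand), which specifies the dorsal side of the limb, had 102, 88 and 88 counts in WT against 0, 0 and 0 in KO. It was thus at least 31.6-fold lower, taking 3 counts per library as the limit (adjusted p = 0.000414). Lhx2 (chr2:38339281-38369733, plus strand), which acts in limb bud outgrowth and in hair follicle and forebrain precursors, was at 14.2, 15 and 13 CPM in WT and 1.54, 1.99 and 1.85 CPM in KO, and fell by 2.97 (SE 0.13, adjusted p = 0.000122). Lhx9, which shares functions with Lhx2 in the limb bud, was at 0.691, 0.849 and 0.743 CPM in WT and 1.84, 1.87 and 2.04 CPM in KO, and rose by 1.33 (SE 0.10, adjusted p = 0.00891). Lhx2 and Lhx9 did not overlap between genotypes and moved in opposite directions, and Lhx8 had 0 counts throughout.

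Of the sine oculis-type genes Six2, Six4 and Six5, partners of the Eya coactivators, 1 of 3 was called. Six2, which maintains kidney progenitors and is also expressed in head mesenchyme, was at 2.39, 2.07 and 2.16 CPM in WT and 0.526, 0.801 and 0.544 CPM in KO, and fell by 1.81 (SE 0.20, adjusted p = 0.00398). Six4 was at 18.7, 18.4 and 23.8 CPM in WT and 42.2, 24.1 and 26.6 CPM in KO (log2 difference 0.61, SE 0.28, adjusted p = 0.0948), with no overlap. Six5, which lies next to the myotonic dystrophy kinase gene, was at 4.05, 3.52 and 4.05 CPM in WT and 2.59, 7.74 and 6.50 CPM in KO (log2 difference 0.54, SE 0.49, adjusted p = 0.333). KO replicate 1 was high for Six4 and low for Six5, and without it Six5 passed the test (log2 0.88, adjusted p = 0.00439).

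Meis and Pbx genes, the TALE homeodomain cofactors of proximal limb identity, were the family with more higher than lower calls, 3 against 1 of 5. Meis1 (chr11:18879817-19018985, minus strand) was at 16.4, 16.6 and 24.4 CPM in WT and 39.9, 46.9 and 44.8 CPM in KO, and rose by 1.20 (SE 0.20, adjusted p = 0.00349). Meis2 was at 14.1, 14.1 and 14.5 CPM in WT and 16.9, 15.3 and 19.1 CPM in KO (log2 difference 0.27, SE 0.09, adjusted p = 0.216). Meis3 was at 15.6, 14.4 and 12.7 CPM in WT and 1.73, 6.08 and 5.19 CPM in KO, and fell by 1.71 (SE 0.58, adjusted p = 0.0202). The 3 Meis paralogues therefore went 3 ways, higher, not called and lower. Pbx2 was at 50.2, 50.6 and 52.6 CPM in WT and 72.1, 65.4 and 64.2 CPM in KO, and rose by 0.40 (SE 0.06, adjusted p = 0.0287). Pbx3 was at 31.7, 28.7 and 25.4 CPM in WT and 40.3, 40.8 and 38.2 CPM in KO, and rose by 0.48 (SE 0.10, adjusted p = 0.0291).

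The Pbx rises were small and depended on scaling. With library totals as the only scaling, which moved the median of all genes by -0.193, Pbx2 was at log2 0.19 (adjusted p = 0.200) and Pbx3 at 0.27 (adjusted p = 0.135), both still positive. Leaving out any 1 library other than KO replicate 1 also ended the Pbx2 call, with adjusted p from 0.0609 (without KO replicate 2) to 0.127 (without WT replicate 2), and Pbx3 did not pass without WT replicate 2 (0.115), without WT replicate 3 (0.0974), without KO replicate 2 (0.0743) or without KO replicate 3 (0.0653). Meis3 did not pass without WT replicate 1 (0.0753), without WT replicate 2 (0.0668) or without WT replicate 3 (0.0584). Without KO replicate 1, the lowest Meis3 library, the Meis3 change was -1.34 on the log2 scale and still called.

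All 4 Iroquois genes, homeobox genes that sit in clusters and pattern limb, heart and neural tissue, were called, 3 lower and 1 higher. Irx2 (chr13:72628820-72634198, plus strand) had 339, 433 and 357 counts in WT against 0, 7 and 1 in KO, or 10.7, 13.6 and 12.1 CPM against 0, 0.208 and 0.0272 CPM. It fell by 7.14 (SE 1.66, adjusted p = 0.000348). Irx1 of the same cluster had 29, 15 and 10 counts in WT against 0, 0 and 0 in KO, and was at least 6.08-fold lower (adjusted p = 0.00689). The cluster on chromosome 13 was thus nearly or wholly without counts in KO. In the cluster on chromosome 8 the genes moved apart: Irx3, a gene also studied for its role in fat cells, was at 1.23, 1.07 and 1.28 CPM in WT and 4.47, 3.05 and 3.24 CPM in KO, and rose by 1.58 (SE 0.19, adjusted p = 0.00497). Irx5 was at 8.93, 7.70 and 10.3 CPM in WT and 4.69, 6.05 and 5.63 CPM in KO, and fell by 0.72 (SE 0.16, adjusted p = 0.0368). Irx5 lost its call when any 1 library but KO replicate 1 was left out, with adjusted p from 0.0593 (without KO replicate 2) to 0.124 (without WT replicate 3), and at 0.0507 with no filter on low counts.

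None of the somite and mesenchyme genes of the Meox, Pax and bHLH families was called by edgeR, DESeq2 or limma-voom, and 0 of the 5 tested had an unadjusted p below 0.05. Twist1, a bHLH regulator of mesenchyme and suture cells, was among the most abundant patterning genes per kb of exon, at 24.8 CPM per kb in WT and 20.3 in KO. Its libraries were at 42.8, 40.3 and 37.9 CPM in WT and 38.6, 29.1 and 31.2 CPM in KO (log2 difference -0.29, SE 0.13, adjusted p = 0.165). Twist2, of the dermis, was at 12.5, 11.4 and 11.3 CPM in WT and 13.3, 10.8 and 10.8 CPM in KO (log2 difference -0.02, SE 0.11, adjusted p = 0.950). Twist1 and Twist2 overlapped between the genotypes. Pax3, which marks dermomyotome and neural crest, was at 14.9, 15.1 and 14.7 CPM in WT and 24.3, 12.0 and 14.4 CPM in KO (log2 difference 0.18, SE 0.31, adjusted p = 0.646), with KO replicate 1 high. The change was -0.18 without KO replicate 1 and -0.04 with library totals as the only scaling. Pax9, of the sclerotome and teeth, stood between 0.682 and 2.09 CPM with overlap of the genotypes. The somite gene Meox1 was at 1.29, 1.63 and 2.26 CPM in WT and 2.97, 2.40 and 2.77 CPM in KO, without overlap (log2 difference 0.65, SE 0.25, adjusted p = 0.134). Pax1 summed to 1 count over the 6 libraries and Meox2 to 0. Tcf21, a gene of visceral and epicardial mesenchyme, had 7, 1 and 7 counts in WT against 0, 1 and 0 in KO, a ratio of 15.6 (95% counting interval 2.40 to 657.6). Without KO replicate 1, Twist1 (log2 -0.42, adjusted p = 0.00857) and Pax9 (log2 -1.24, adjusted p = 0.00892) passed the test, and Twist1 also passed with library totals as the only scaling (log2 -0.50, adjusted p = 0.0201).

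Of the forkhead genes of mesenchyme, 2 of 5 fell and 1 rose. Foxc1 (chr13:31806633-31812476, plus strand), which acts in somites, skull and eye, was at 84.3, 83.2 and 118 CPM in WT and 33.8, 39.0 and 38.4 CPM in KO, and fell by 1.36 (SE 0.18, adjusted p = 0.00127). Foxd1 (chr13:98354242-98359305, plus strand), a marker of kidney stroma and of dermal and temporal retinal cells, was at 70.4, 69.7 and 71.1 CPM in WT and 28.3, 33.8 and 28.1 CPM in KO, and fell by 1.23 (SE 0.09, adjusted p = 0.000502). Genotypes did not overlap in either gene. Foxc2, a paralogue of Foxc1 with shared roles in somites and vessels, was at 1.13, 1.23 and 1.42 CPM in WT and 2.97, 2.73 and 3.54 CPM in KO, and rose by 1.29 (SE 0.15, adjusted p = 0.00899). Foxf1, a Hedgehog-responsive gene of gut and lung mesenchyme, was at 37.6, 41.7 and 33.3 CPM in WT and 34.5, 17.6 and 14.4 CPM in KO (log2 difference -0.76, SE 0.39, adjusted p = 0.111). Its paralogue Foxf2 was at 21.1, 15.4 and 13.5 CPM in WT and 14.4, 16.2 and 19.3 CPM in KO (log2 difference -0.003, SE 0.23, adjusted p = 0.992). The KO library of Foxf1 that overlapped WT was replicate 1, and without it Foxf1 passed the test (log2 -1.23, adjusted p = 0.000229), as it did with library totals as the only scaling (log2 -0.98, adjusted p = 0.0361). Foxc2 did not pass without WT replicate 2 (adjusted p = 0.0518).

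Many patterning genes lie beside a relative on the chromosome, and 11 such neighbouring pairs were set side by side. Both genes were lower in the Zic1 and Zic4 pair, whose starts are 3.40 kb apart, in the Zic2 and Zic5 pair at 9.76 kb and in the Irx1 and Irx2 pair at 665 kb. With all 6 libraries and TMM scaling, the Irx3 and Irx5 pair, at 556 kb, had one gene higher and the other lower. That depended on the setting, since Irx5 was not called under 7 of the 13 alternatives. In another pair, Foxc2 and Foxf1 were opposite calls with library totals as the only scaling or without KO replicate 1 (Foxf1 log2 -0.98 and -1.23, adjusted p = 0.0361 and 0.000229). In the Dlx3 and Dlx4 pair (26.1 kb), the Foxc1 and Foxf2 pair (181 kb) and the Foxc2 and Foxf1 pair (31.8 kb), 1 gene was called with all 6 libraries and its neighbour was not. Neither gene was called in the Dlx1 and Dlx2 pair (18.6 kb) or the Dlx5 and Dlx6 pair (18.8 kb). The Tbx2 and Tbx4 pair (53.9 kb) and the Tbx3 and Tbx5 pair (162 kb) held genes too low to test. A call in one gene and none in its neighbour does not show that they differ, and the difference within a pair was not tested.

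**Figure D3:**
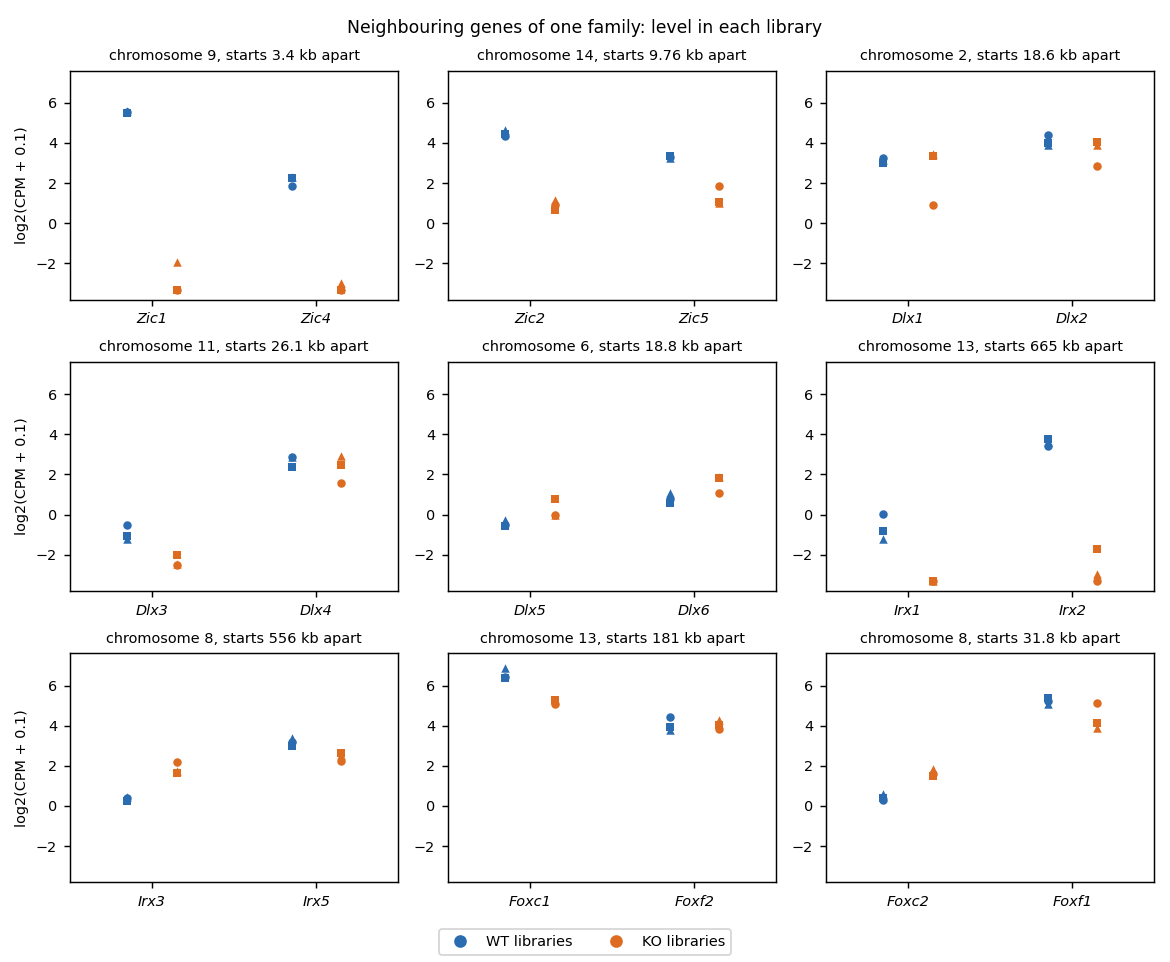
Level of both genes of 9 neighbouring pairs in each library, as log2(CPM + 0.1) on the vertical axis, with WT in blue, KO in orange, marker shapes for replicates 1 (circle), 2 (square) and 3 (triangle), and the distance between starts above each panel. Both genes of the pairs Zic1 with Zic4, Zic2 with Zic5 and Irx1 with Irx2 sit lower in KO, while Irx3 sits higher and Irx5 lower.

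Non-coding genes beside the patterning genes were read the same way. In the annotation, 14 tested non-coding genes overlapped one of the 55 genes or started within 5 kb of its start on the other strand, and 8 of them were called, where 27.9% of all tested genes were. Genes such as C130021I20Rik, Gm20554, Irx3os and Gm17028 entered the test through the counts of 1 genotype alone. The count of 8 thus describes these genes and supports no excess of calls. Of the 8, 7 had the sign of their neighbour, but Foxf1 and Dlx6, beside Fendrr and Dlx6os1, were not called themselves, and Irx3os and Gm17028 share exon bases with their neighbours. Beside Zic2, 2610035F20Rik starts 236 bases away on the other strand and had 63, 54 and 42 counts in WT against 5, 7 and 7 in KO, a fall of 3.09 (SE 0.15, adjusted p = 0.000656). Beside Lmx1b, C130021I20Rik starts 682 bases away and had 76, 26 and 30 counts in WT against 0, 0 and 0 in KO, at least 14.9-fold lower (adjusted p = 0.00454). Gm20554, 256 bases from the start of Irx2, had 14, 19 and 29 counts in WT against 0, 1 and 0 in KO, a ratio of 64.6 (95% counting interval 11.2 to 2591, adjusted p = 0.00244). All 3 non-coding genes were thus lower in KO beside genes that were themselves lower there, with C130021I20Rik and Gm20554 at 0 or 1 count in each KO library and 2610035F20Rik still counted in all 3.

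Other non-coding neighbours showed both shared and opposite directions. Fendrr, a long non-coding RNA that starts 1276 bases from Foxf1 and is needed in heart and body wall development, had 333, 349 and 258 counts in WT against 115, 209 and 182 in KO, and fell by 0.96 (SE 0.18, adjusted p = 0.0141), while Foxf1 itself was not called. Dlx6os1, also known as Evf2 and transcribed across the Dlx5 and Dlx6 locus, had 46, 53 and 70 counts in WT against 142, 182 and 145 in KO, and rose by 1.42 (SE 0.26, adjusted p = 0.00937). Irx3os had 1, 5 and 6 counts in WT against 18, 20 and 19 in KO (rise of 2.16, SE 0.80, adjusted p = 0.0207) and shares 124 exon bases with Irx3 on the other strand. Crnde starts 1505 bases from Irx5 and had 53, 53 and 61 counts in WT against 137, 98 and 125 in KO, so it rose by 1.08 (SE 0.27, adjusted p = 0.0310) where Irx5 fell. Gm17028 lies on the strand of Alx1, shares 243 exon bases with it, and had 5, 1 and 2 counts in WT against 26, 85 and 105 in KO (rise of 4.57, SE 0.80, adjusted p = 0.00232).

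Where exons are shared, reads in the shared bases cannot be assigned between the partners from these counts. Gm29100 shares 1477 exon bases with Twist2 and D030062O11Rik shares 970 with Tbx18, and neither was called (adjusted p = 0.553 and 0.405). The calls of Fendrr, Dlx6os1, Irx3os and Crnde did not hold in every fit with 1 library left out: Fendrr did not pass without WT replicate 1 (adjusted p = 0.0582), without WT replicate 2 (0.0704) or without KO replicate 3 (0.0503), Dlx6os1 without WT replicate 2 (0.0522), Irx3os without WT replicate 2 (0.0736), and Crnde without any 1 of the WT libraries (0.0712 to 0.122) or without KO replicate 3 (0.0583). 1700018A04Rik, 24 bases from the start of Foxf2, was not called (adjusted p = 0.0799) and was called without KO replicate 1 (log2 1.87, adjusted p = 0.00132). Gm37818, within Meis1, was called without WT replicate 3 (log2 1.82, adjusted p = 0.0354). With all 6 libraries, DESeq2 called 1700018A04Rik (adjusted p = 0.0308), Gm37818 (0.0422) and 2900018N21Rik, which also lies within Meis1 (0.0499).

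**Figure D4:**
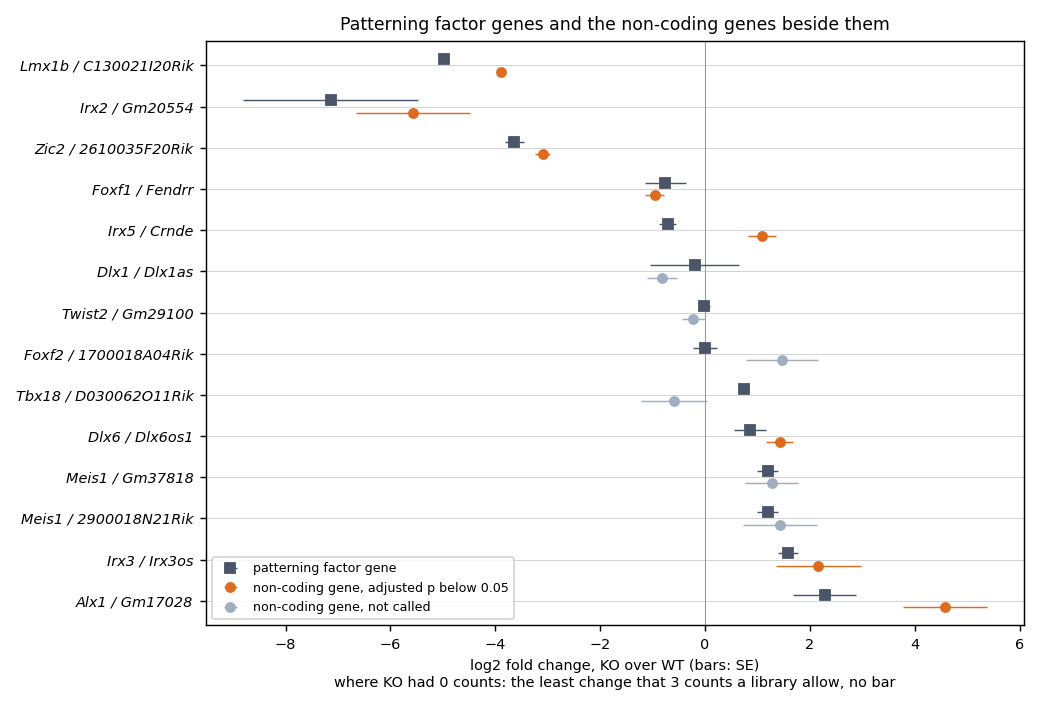
Log2 fold change of KO over WT (horizontal axis, bars for the SE) of 14 non-coding genes (circles, orange where called and grey where not) beside that of the patterning gene they overlap or adjoin (dark squares); where KO had 0 counts the least change that 3 counts a library allow is drawn. Circles of C130021I20Rik, Gm20554 and 2610035F20Rik lie far to the left with their neighbours, and Crnde lies to the right of 0 while Irx5 lies to the left.

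Genes related to the patterning factors or working with them were counted as lists, read against the 27.9% of all tested genes that were called. Genes such as Pax6, Pax2 and the BMP ligand gene Bmp2 entered the test through their WT counts alone. The counts of the lists thus describe their genes and support no excess of calls. Of 39 other members of the same families, 19 were tested, 8 were lower, 1 was higher and 10 were not called. Pax6, a regulator of eye and neural progenitors, had 247, 291 and 187 counts in WT against 1, 4 and 4 in KO, and fell by 6.34 on the log2 scale (adjusted p = 8.88e-05). Pax2, of kidney and midbrain, was at 2.29, 3.30 and 1.96 CPM in WT and 0.225, 0.563 and 0.218 CPM in KO, and fell by 2.88 (adjusted p = 0.00359). Both genes separated the genotypes, and Pax6 is also among the neural progenitor markers.

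Cofactors of the patterning proteins were called in some lists and not in others. Of 6 TALE relatives and cofactors, edgeR called 0, with 2 at an unadjusted p below 0.05, 1 called by DESeq2 and 0 by limma-voom, and of 6 Groucho corepressors, through which many homeodomain repressors act, edgeR called 0, with 1 at an unadjusted p below 0.05, 1 called by DESeq2 and 0 by limma-voom. Of the 6 Eya and Dach genes 3 were tested: Eya4 was at 84.0, 82.1 and 106.2 CPM in WT and 33.5, 41.0 and 33.8 CPM in KO and fell by 1.33 (adjusted p = 0.000956), while Eya1 was at 19.4, 16.4 and 20.3 CPM in WT and 45.8, 36.9 and 30.1 CPM in KO and rose by 1.00 (adjusted p = 0.00667). Among 10 LIM cofactors 6 were tested, and Rlim (log2 0.57) and Ssbp2 (log2 0.39) were higher and Ssbp4 (log2 -0.53) lower. Of 7 bHLH partners and inhibitors the inhibitor Id4 was higher (log2 1.19, adjusted p = 0.0322) and 6 were not called. The calls of Rlim, Ssbp2, Ssbp4 and Id4 did not hold when WT replicate 2 was left out (adjusted p = 0.0978, 0.132, 0.142 and 0.114), nor without WT replicate 1 (0.102, 0.0717, 0.124 and 0.0799). Each of these calls was also lost in at least 1 of the fits without WT replicate 3, KO replicate 2 or KO replicate 3 (adjusted p = 0.0595 to 0.116), and those of Rlim, Ssbp2 and Id4 did not hold with library totals as the only scaling (0.0970, 0.192 and 0.0636).

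The upstream signals were mixed. Among 14 genes that feed BMP signals to Msx and Dlx, 10 were tested, 2 were lower, 1 was higher and 7 were not called. The ligand gene Bmp2 summed to 386 counts over the WT libraries against 2 over the KO libraries, a ratio of 201 (95% counting interval 55.3 to 1666). Grem1, a secreted BMP antagonist of the limb bud, was at 441.4, 250.8 and 253.6 CPM in WT and 31.8, 51.0 and 50.6 CPM in KO, and fell by 2.82 (adjusted p = 0.000667). Bambi, a decoy receptor, was at 1.89, 1.01 and 1.45 CPM in WT and 12.5, 4.63 and 6.31 CPM in KO, and rose by 2.43 (adjusted p = 0.00641). A BMP ligand and a BMP antagonist were thus both lower. Of 14 Hedgehog pathway genes 10 were tested and 2 called, 1 in each direction: the coreceptor Cdon was higher (log2 0.58, adjusted p = 0.0495), while the ligand gene Shh had 0 counts in every library. Cdon did not pass without WT replicate 1 (adjusted p = 0.144), without WT replicate 2 (0.176) or without KO replicate 3 (0.0770). Without KO replicate 1, 5 Hedgehog and 6 BMP genes were called, in a fit that called 6569 of all 15453 tested genes.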

How the data were processed

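RNA sequencing of 3 WT and 3 KO MEF cultures was analysed from the raw counts per Ensembl gene that the authors deposited, 1 library per file. Per the submitters' processing notes, the tools were TopHat2 2.1.0, HTSeq and DESeq2 on build GRCm38.p4, and the library kit is TruSeq RNA v2 per the labels' protocols. Neither the annotation release nor the strand setting of the counting is given in the sources used here. Of 46603 gene identifiers 46091 matched GENCODE M21 (GRCm38), which gave symbols, positions and exon lengths, and RefSeq (GRCm38.p6) gave promoters.

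In R 4.3.3, genes were kept with filterByExpr by group (15009 tested), scaled with TMM and compared with the two-sided quasi-likelihood F test of edgeR 4.0.16 on genotype alone. Called genes had an adjusted p (Benjamini-Hochberg, whole table) below 0.05. CPM are counts per 1e6 in TMM-scaled libraries, log2 fold changes are KO over WT, and SE refers to the difference between group means of log2 CPM. Ratios with 1 to 3 counts in a group carry an exact 95% interval that covers counting error only. Where a group had 0 counts, the fold is a bound at 3 counts per library. Every called gene and every gene with a mean of at least 5 CPM in either group was named. From each list of related genes the called genes with the smallest p were named, 3 and 1 of the other direction, at a mean of at least 1 CPM. Some genes that this rule takes are not reported here. The fit was tested on simulated data. Alternatives were RLE size factors, library totals, no filter, a CPM of at least 1 in 3 libraries, DESeq2 1.42.0, limma-voom (limma 3.58.1), the replicate number as a block and each library left out. The genes and lists were chosen with earlier results of these data known.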

Additional observations from a re-analysis of the deposited data

How the results depend on the processing

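Of the 30 called patterning genes, 19 were called under every alternative that tested them (14 lower, 5 higher) and 11 were lost in at least 1. Of the 17 not called, 12 were called in none. Irx1, among the 19, was tested in 12 of the 13 alternatives. The CPM filter removed it before the test, together with Dlx3, Dlx5 and Tbx1. The number of called patterning genes was 30 with RLE size factors, 29 with library totals, 27 with no filter, 27 with a CPM of at least 1 in 3 libraries, 31 with DESeq2 and 30 with limma-voom. Library totals moved the median of all genes to -0.193 and the share of calls that were higher from 48.7% to 28.8%, with 7 patterning genes higher and 22 lower. Deviations of equally numbered libraries from their group means correlated at -0.132, 0.059 and -0.161 across genes, and those of unequally numbered libraries at -0.084 to 0.178. With 3 libraries per genotype these values cannot settle whether replicate numbers pair the libraries. With the replicate number as a block, 24 patterning genes and 2969 of all genes were called, and the LIM cofactor, bHLH and Hedgehog lists had 0, 0 and 0. Over the fits with 1 library left out, called patterning genes ran from 22 to 35 (higher 5 to 12), all genes from 2232 to 6569, and the median from -0.525 to -0.254. Called genes in the lists then ran from 0 to 4 for LIM cofactors, 0 to 1 for bHLH partners, 0 to 1 for Groucho corepressors, 0 to 5 for the Hedgehog pathway and 3 to 6 for BMP inputs. Library totals gave 1 LIM cofactor, 1 Groucho and 5 BMP genes, no filter gave 4 Eya and Dach genes, the CPM filter 1 Hedgehog gene, and DESeq2 1 TALE, 1 Groucho and 4 Hedgehog genes. Changes close to 0 turned sign: Foxf2 was at 0.005 with RLE size factors and DESeq2, 0.02 with limma-voom, 0.013 with the block, and from -0.138 to 0.196 with 1 library left out. With 1 library left out, Twist2 ran from -0.121 to 0.04, Dlx1 from -0.549 to 0.258, Dlx4 from -0.611 to 0.015, Prrx1 from -0.386 to 0.109 and Pax3 from -0.177 to 0.378, and in Dlx1, Dlx4, Prrx1 and Pax3 the sign turned only without KO replicate 1. Pax3 was at -0.042 with library totals. The cause of these moves was not tested. Fits with 1 library left out have fewer libraries and less power. For genes near 3 counts a library the depth limits any fold.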

Other observations

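The following genes were chosen after their values were seen and carry no test here. The genes Dach2 and Eya2 were too low for the test. Dach2, a transcriptional cofactor that works with Eya proteins, had 0 counts in every WT library and 2, 9 and 15 counts in KO. Eya2, a phosphatase and transcriptional coactivator, had 28, 9 and 29 counts in WT against 1, 1 and 0 in KO. Hand2, which sets posterior identity in the limb bud, had 1, 3 and 2 counts in WT against 0, 0 and 0 in KO.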
